A study of Macaca mulatta with 2 samples.

Results

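The cells described here are the CCR6+ Th17-like cells among circulating CD4+CD8+ double-positive (DP) T cells of a rhesus monkey. They were selected on raw counts of unique molecular identifiers (UMIs, each standing for 1 captured RNA molecule). A cell needed at least 1 UMI of CCR6, at least 1 of CD3D, CD3E or CD3G, and none of CCR9, FOXP3, MS4A1 or CD79B. Of 7601 cells that passed quality control, 430 met the rule, a share of 5.66% (exact binomial 95% interval 5.15 to 6.20). They were compared with 6880 cells that carried CD3 UMIs and no CCR6 UMI.

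The data come from 1 untreated Macaca mulatta aged 6 years, whose DP T cells were taken from fresh blood mononuclear cells with magnetic beads against CD4 and then against CD8. CD4 and CD8 antibody tags were read as a feature barcode (FB) library beside the 5' gene expression library. With 1 animal there is no biological replicate, so no test was made, and every interval below covers counting error only. "Higher" and "lower" describe these cells of this animal.

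CCR6 is the receptor for the chemokine CCL20, which epithelia make, and it is a classical surface marker of T helper 17 (Th17) cells. Th17 cells arise under TGF-beta, IL-6 and IL-1, are maintained by IL-23, and are known for IL-17A and IL-17F, cytokines that recruit neutrophils and act on epithelial barriers. In blood, CCR6+ T cells are memory cells that can also bear receptors of the Th1 (CXCR3) or Th2 (CCR4) kind.

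Selection by CCR6 was a selection on few molecules. Among members, 290 carried 1 CCR6 UMI, 99 carried 2, 30 carried 3, 6 carried 4 and 5 carried 5, which places most members 1 molecule above the cells left outside. Of 565 CD3+ cells with CCR6, 135 were left out by the exclusions, 97 of them with CCR9, 30 with CD79B, 22 with MS4A1 and 18 with FOXP3, some with several. Another 16 cells had CCR6 and no CD3 UMI. Members held 627 of 839 CCR6 UMIs. These values chose the cells and are given as a description.

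Finding CCR6 depended on depth. Among CD3+ cells with 2000 to 3000 UMIs, 2.10% had a CCR6 UMI, and among those with at least 7000 it was 21.7%. The CCR6 level itself also differed, from 9.49 CPM (UMIs per 1000000 gene UMIs of the group) in the first group to 36.0 CPM in the second. The 434 cells under 2000 UMIs stood apart, with 51.2 CPM. When each cell was thinned to 2000 UMIs, 54.5% of 411 members (49.5 to 59.4) still had a CCR6 UMI, so a cell without one is not shown to lack the transcript.

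**Figure D1:**
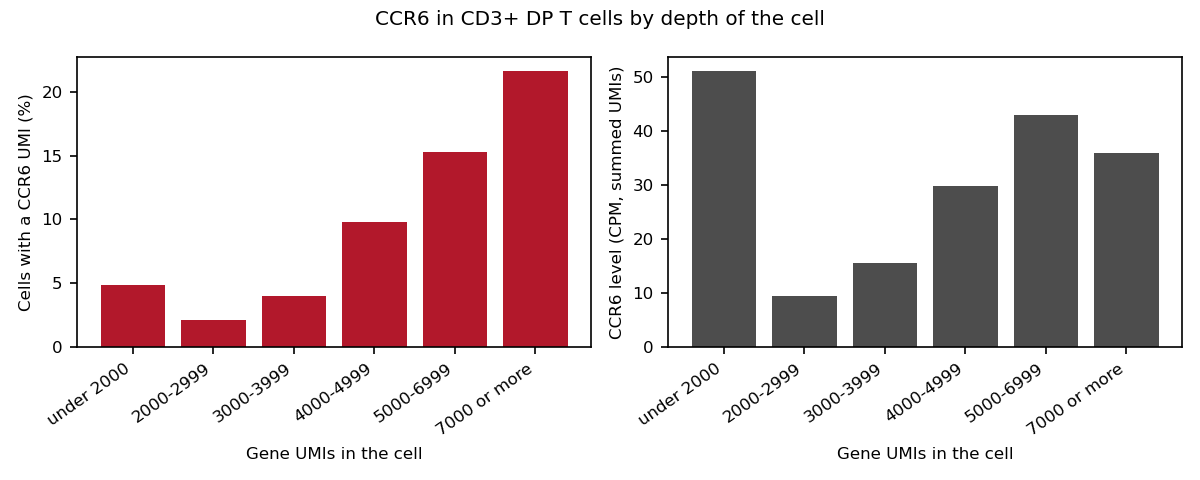
Share of CD3+ cells with a CCR6 UMI (left, percent) and CCR6 level from summed UMIs (right, CPM) by gene UMIs in the cell. The share runs from 2.10% at 2000 to 3000 UMIs to 21.7% at 7000 or more.

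Background was read in 1246 cytotoxic cells with UMIs of both GZMB and CX3CR1, which should lack CCR6. CCR6 was found in 1.85% of them (1.17 to 2.76) and in 0.924% after thinning, at a median of 3420 UMIs against 4734.5 in members. It was also found in 9 of 86 B gene cells, which had 3 or more B cell gene UMIs without CD3. After thinning it was found in 6 of 79 of these. Whether the CCR6 UMIs of B gene cells are background or expression was not tested, so 1.85% describes cytotoxic cells only. Members had a median of 1465 genes against 1274 in the CCR6-negative cells, whose median was 3572 UMIs. Mitochondrial UMIs made up 5.47% and 5.28% of the totals. Comparisons below use CPM from UMIs summed over each group of cells, so total depth is divided out, while a larger RNA content per cell is not distinguished.

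The CCR6-negative cells were rich in cytotoxic cells, as GZMB reached 1358 CPM in them. A second reference was therefore set beside the first. It holds 2435 CCR6-negative cells under the same exclusions with no UMI of GZMB, GZMK, PRF1, CX3CR1 or ADGRG1, at a median of 3981 UMIs. Members were not filtered on these genes: 92 had such a UMI and 338 had none. For some genes the 338 are compared with the second reference. Elsewhere all members are, and the filter can then raise members in genes that cytotoxic cells also express.

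Besides CCR6, 3 markers were given for these cells, and all were detected in them. IL23R, the specific subunit of the IL-23 receptor, had 26 UMIs in 22 members and 38 UMIs in 36 of the 6880 CCR6-negative cells. This is 11.9 CPM (7.77 to 17.4) against 1.39 CPM (0.985 to 1.91), a log2 ratio of 3.1 (2.32 to 3.85). The difference was of the same order against the second reference, at 2.20 CPM and a log2 ratio of 2.44. Few molecules carry this result, and only 5.12% of members (3.23 to 7.64) had an IL23R UMI, against 0.0803% of the cytotoxic background cells.

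IL17RE, which pairs with IL-17RA to bind IL-17C, stood at 14.2 CPM in members (9.64 to 20.1) and at 6.19 CPM in the CCR6-negative cells (5.29 to 7.19). Its log2 ratio was 1.20 (0.60 to 1.76), and 1.34 against the second reference. IL17RE was thus also higher, though less specific: the cytotoxic background cells held 6.96 CPM of it. After thinning, an IL17RE UMI was found in 2.19% of members (1.01 to 4.12) and 1.30% of CCR6-negative cells (1.04 to 1.61), shares whose intervals overlap.

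CSF1, the growth factor of macrophages, separated members from some cells and not from others. Members had 43.9 CPM (35.6 to 53.7), the CCR6-negative cells 32.6 CPM (30.5 to 34.8) and the second reference 14.7 CPM (12.4 to 17.3). The cytotoxic background cells had 54.7 CPM and CXCR3+ cells 47.9 CPM, neither below the level in members. The CXCR3+ level lay inside the interval of members. Without cytotoxic UMIs on either side, the 338 members had 31.9 CPM, a log2 ratio of 1.12 (0.64 to 1.58) to the second reference. When the exclusions of the rule were also applied to the CCR6-negative cells, the log2 ratio of CSF1 was 0.31 and its interval reached 0 (-0.01 to 0.62). CSF1 thus did not set members apart from cytotoxic cells, and of the markers given only IL23R and IL17RE were above both references and the cytotoxic background.

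Across all genes with at least 50 UMIs in both groups together, 124 of 9992 were higher in members by 1.5-fold or more in the ratio of CPM + 10 (1.24%) and 193 were lower (1.93%). Against the second reference, 139 of 8441 were higher (1.65%) and 34 were lower (0.403%). The counts of the gene groups that follow are given beside these shares as a description. The lists were chosen with earlier results of these data known, and some hold the given markers IL23R, IL17RE or CSF1. A count above these shares can therefore come from the choice of genes, and no enrichment is concluded from it. The median log2 ratio of CPM + 10 over all genes was -0.02 and 0.07, respectively.

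Among 13 measured receptors of Th17-shaping cytokines, 6 were past 1.5-fold higher in members against the CCR6-negative cells and none was lower, with a median log2 ratio of CPM + 10 of 0.58. The 6 were IL23R, IL12RB1, IL17RA, IL1R1, IL18R1 and IL7R. IL1R1, the signalling receptor of IL-1, had the largest ratio of them. It had 42 UMIs in 34 members and 36 UMIs in 34 CCR6-negative cells, or 19.2 CPM (13.9 to 26.0) against 1.32 CPM (0.923 to 1.82), a log2 ratio of 3.87 (3.19 to 4.55). As many members as CCR6-negative cells thus carried an IL1R1 UMI, although the latter were far more numerous. The 338 members without cytotoxic UMIs had 20.5 CPM of IL1R1, against 2.20 CPM in the second reference.

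IL12RB1, the chain that the IL-12 and IL-23 receptors share, stood at 31.1 CPM in members, 16.3 CPM in CCR6-negative cells and 8.90 CPM in the second reference, with log2 ratios of 0.94 and 1.81. IL18R1, which binds IL-18, stood at 23.3 CPM against 10.0 CPM (log2 ratio 1.22), and its partner IL18RAP at 7.78 CPM against 2.78 CPM (log2 ratio 1.48, 0.63 to 2.26). The second reference gave 1.09 and 1.64. IL18RAP, at its low level, was not past 1.5-fold in the ratio of CPM + 10. IL17RA, the common chain of IL-17 receptors, was higher against the first reference (36.2 against 19.0 CPM, log2 ratio 0.93) and not beyond counting error against the second (30.1 CPM, log2 ratio 0.27, -0.11 to 0.63).

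IL7R, the IL-7 receptor chain of resting memory and naive cells, was the most abundant of these genes, at 1713 CPM against 1095 CPM and 1383 CPM, and 425 of 430 members had a UMI. By contrast IL6ST, the gp130 chain through which IL-6 signals, was lower: 35.7 CPM in members, 50.5 CPM in CCR6-negative cells and 85.6 CPM in the second reference, with log2 ratios of -0.50 and -1.26. IL6R changed side with the reference, with log2 ratios of 0.36 and -0.48. Against the second reference 4 of 11 measured receptors were past 1.5-fold higher and 1 was lower, with a median of 0.20.

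**Figure D2:**
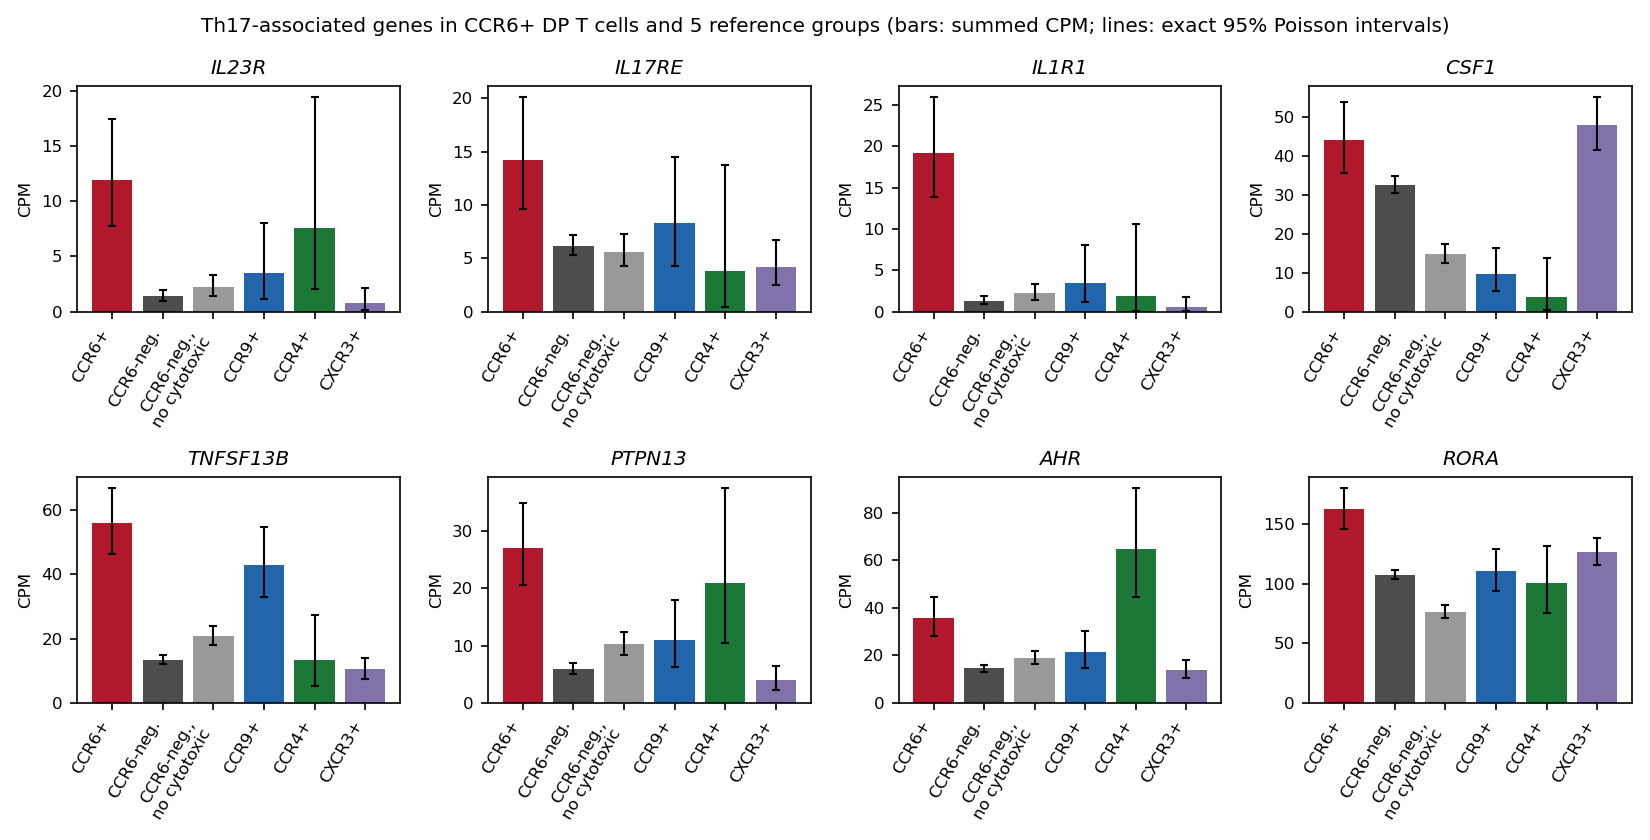
Levels (CPM, from summed UMIs) of 8 Th17-associated genes in CCR6+ DP T cells, the 2 CCR6-negative references and 3 groups chosen by 1 other chemokine receptor, with exact 95% Poisson intervals. IL23R and IL1R1 are highest in CCR6+ cells, while CSF1 is as high in CXCR3+ cells and AHR is higher in CCR4+ cells.

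Of 9 measured Th17 transcription factors, 1 (AHR) was past 1.5-fold higher against the first reference, with a median of 0.28, and 3 of 8 (RORA, AHR and BATF) were against the second, with a median of 0.25. None was lower in either. The second count is over all members, 92 of them with cytotoxic UMIs that the second reference lacks, so the filter can raise it. AHR, a sensor of aromatic ligands that acts in Th17 and IL-22 producing cells, stood at 35.7 CPM in members (28.2 to 44.6) and 14.6 CPM in CCR6-negative cells (13.2 to 16.2), a log2 ratio of 1.29. RORA, a retinoic acid receptor-related orphan receptor of the Th17 program, was at 162 CPM against 108 CPM and, in the second reference, 76.2 CPM, with log2 ratios of 0.59 (0.43 to 0.75) and 1.09 (0.90 to 1.27). A RORA UMI was present in 213 members. RORA was not restricted to them, since the cytotoxic background cells had 133 CPM.

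BATF, an AP-1 factor needed for Th17 differentiation, reached a log2 ratio of 0.88 (0.43 to 1.32) against the second reference and 0.39 (-0.01 to 0.78) against the first. RBPJ, the nuclear partner of Notch, had 0.62 and 0.35. STAT3, the factor downstream of IL-6 and IL-23, did not differ beyond counting error (log2 ratio -0.07, -0.30 to 0.16), and neither did MAF (-0.04, -0.50 to 0.39). IRF4 was scarce, with 9 UMIs in 8 members.

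Effector cytokines were rare in these unstimulated cells. IL17A had 13 UMIs in 10 members and 3 UMIs in 3 of the CCR6-negative cells, which gave 5.95 CPM (3.17 to 10.2) against 0.110 CPM (0.0226 to 0.321) and a log2 ratio of 5.76 (3.90 to 8.21). IL17F had 3 UMIs in 3 members and 4 UMIs in the reference. IL17A or IL17F was found in 11 members, among which KLRB1 was found in 5, CTSH in 6, IL1R1 in 3, PTPN13, CCR4 and CXCL13 in 2 each, IL23R and TNFSF13B in 1 each and CXCR3 in none. The transcript most particular to Th17 cells was therefore seen mainly where CCR6 was seen, yet in a small part of members.

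IL22 had no UMI in members and 3 in the reference, IL26 had 2 UMIs in 1 member, and CCL20, IL21 and IL2 had 1 UMI each. CSF2 and CXCL8 had no UMI in either group. IFNG, the Th1 cytokine, had 2 UMIs in members and 222 in the reference, a log2 ratio of -3.15. TNF had 8 UMIs in 4 members. TGFB1 was expressed at like levels, 214 CPM and 209 CPM. Against the first reference, only 4 genes of the 14 on the effector list reached the 50 UMIs needed to be measured. Of these, 1 was past 1.5-fold lower, IFNG, and none higher. Against the second, 2 were measured, of which CSF1 was higher and none lower. The lower IFNG is thus shown only against the reference that is rich in cytotoxic cells.

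The promoters of CCR6 and IL17A are shown because they are the 2 of 9 Th17 genes searched that hold a match to the motif described here. Both sequences are the 250 bases before the gene start in the RefSeq annotation of Mmul_10, written 5' to 3' on the minus strand of chromosome 4, where both genes lie. The start of IL17A comes from a predicted RefSeq model. Capitals mark AGGTCA, the core motif that ROR factors bind, here read as its reverse complement TGACCT.
CCR6, chr4:3589218-3589467: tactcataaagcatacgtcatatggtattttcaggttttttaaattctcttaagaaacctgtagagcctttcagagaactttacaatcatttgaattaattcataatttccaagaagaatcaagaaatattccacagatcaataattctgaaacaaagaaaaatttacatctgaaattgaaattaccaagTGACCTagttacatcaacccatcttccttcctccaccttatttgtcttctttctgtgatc
IL17A, chr4:117349236-117349485: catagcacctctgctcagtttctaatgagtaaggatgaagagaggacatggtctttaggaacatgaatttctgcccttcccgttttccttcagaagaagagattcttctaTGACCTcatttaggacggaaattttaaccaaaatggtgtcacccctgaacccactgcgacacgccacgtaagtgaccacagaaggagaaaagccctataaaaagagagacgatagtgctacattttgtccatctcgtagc
Each holds 1 match. In the same window, AGGTCA on either strand was found in no other of the 9 Th17 genes, in 3 of the 15 genes highest in members (CXCL13, GPX1 and TNFRSF25), and in 12.9% of 20782 protein-coding genes. TGACTCA, an AP-1 site, was in none of these genes and in 3.07% of all. A match in these letters is not a binding site, and IL23R and IL17RE had none in this window.

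Other genes known from CCR6+ Th17 cells were mixed. Of 8 measured, 3 were past 1.5-fold higher (CTSH, PTPN13 and ADAM19) and none lower against the first reference, with a median of 0.46, and 2 of 6 (KLRB1 and PTPN13) were higher and none lower against the second. PTPN13, a phosphatase, stood at 27.0 CPM against 5.93 CPM, a log2 ratio of 2.19 (1.73 to 2.63), and 1.41 against the second reference. ADAM19, a metalloprotease, had a log2 ratio of 1.20 and CTSH, a lysosomal cathepsin, had 1.01 (85.1 against 42.3 CPM), and against the second reference they had 0.62 and 0.44. A CTSH UMI was found in 60.5% of the B gene cells and 27.7% of members. DPP4, the surface peptidase CD26, was at 137 CPM against 88.2 CPM, with 0.63.

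KLRB1, which encodes CD161 and is often read as a sign of Th17 descent, depended on the reference. Members had 126 CPM (111 to 142), the CCR6-negative cells 157 CPM (152 to 162) and the second reference 73.1 CPM (67.9 to 78.6). The log2 ratio was -0.32 (-0.50 to -0.14) and then 0.78 (0.58 to 0.99). With cytotoxic UMIs absent on both sides it was 0.46 (0.21 to 0.70). KLRB1 was thus above other non-cytotoxic DP T cells and below the cytotoxic background, which had 201 CPM. Of 7 measured genes of innate-like T cells, 1 was past 1.5-fold higher (SLC4A10) and 2 lower (MAP3K8 and NCR3) against the first reference, with a median of -0.30, and 1 of 6 was higher (KLRB1) and none lower against the second. With the exclusions of the rule applied to the reference, SLC4A10 was no longer past 1.5-fold. SLC4A10, a gene of MAIT cells, had 19 UMIs in 16 members and a log2 ratio of 1.85, and ZBTB16, the PLZF factor of innate-like T cells, had 0.92. The TRAV10 segment, by which invariant NKT cells are known, was within counting error of the first reference (log2 ratio -0.10, -0.48 to 0.27) and higher than in the second (0.50, 0.08 to 0.91), but 5 members held 56.9% of its 65 UMIs. By cells the intervals overlap, with 3.72% of members (2.14 to 5.97) and 2.30% of the second reference (1.74 to 2.98).

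**Figure D3:**
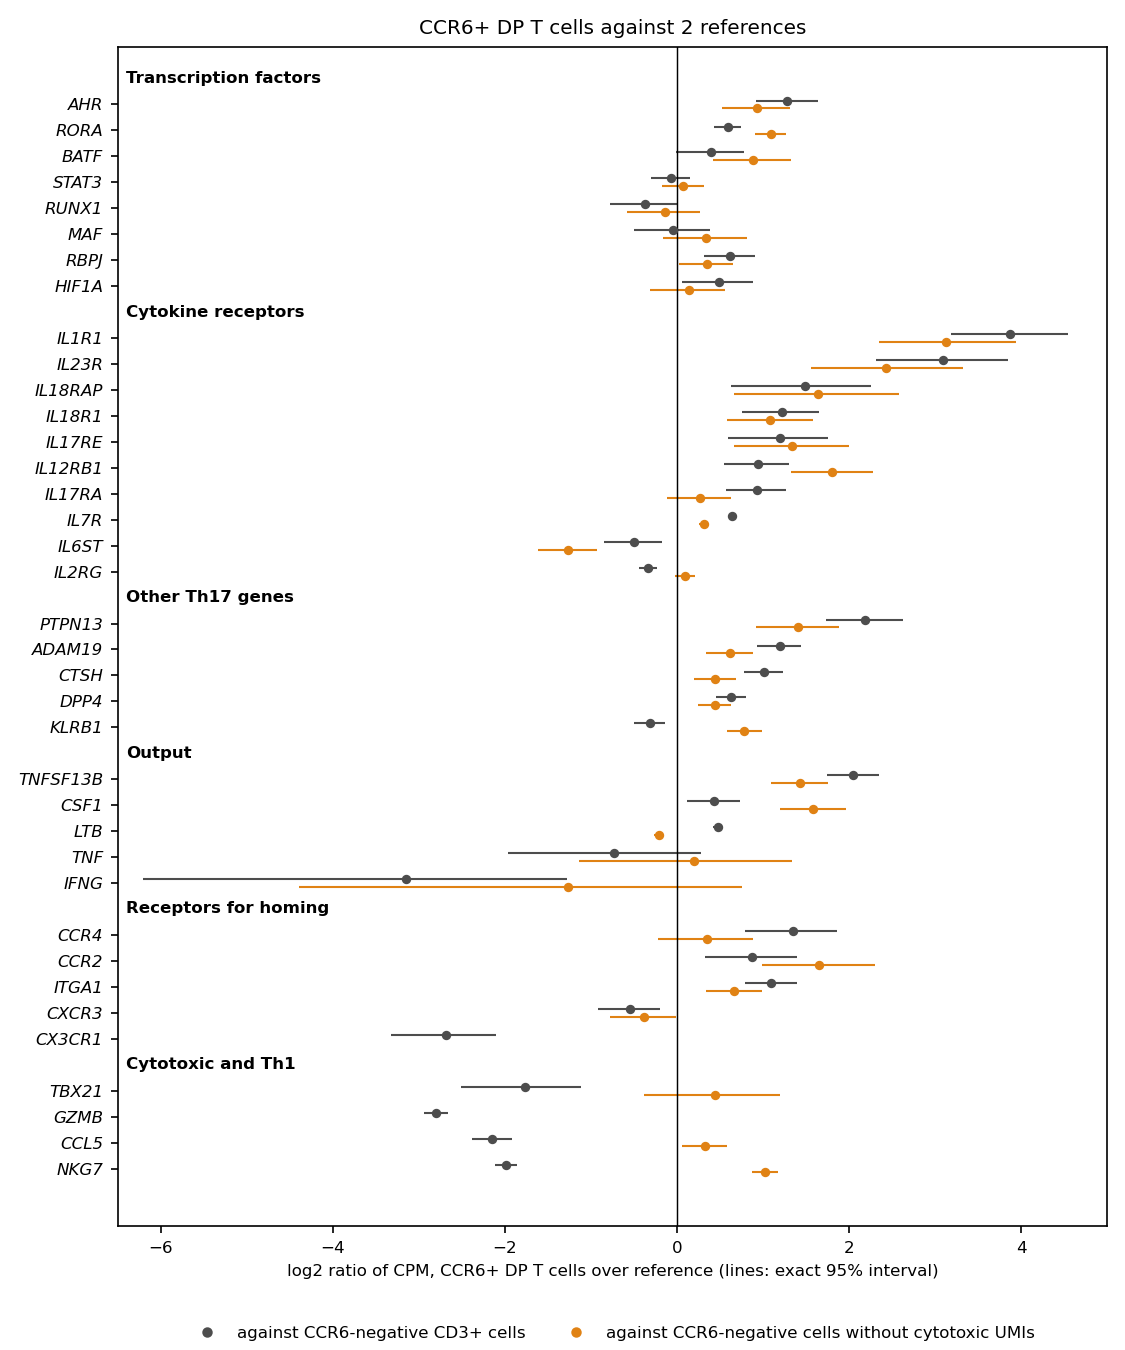
Log2 ratio of CPM of CCR6+ DP T cells over CCR6-negative CD3+ cells (grey) and over CCR6-negative cells without cytotoxic UMIs (orange), with exact 95% intervals, for genes grouped by role. IL1R1 and IL23R lie far to the right with both references, and KLRB1 changes side.

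Among 8 measured TNF family ligands, TNFSF13B alone was past 1.5-fold. TNFSF13B encodes BAFF, a survival factor for B cells. It had 122 UMIs in 88 members, 55.8 CPM (46.4 to 66.7), against 13.5 CPM (12.2 to 15) in CCR6-negative cells, a log2 ratio of 2.05 (1.74 to 2.35), and 20.8 CPM in the second reference, with 1.43. Thinned to equal depth, 9.49% of members had a UMI against 2.18% of CCR6-negative cells, 0.420% of cytotoxic cells and 10.3% of CCR9+ cells, so TNFSF13B did not separate members from the latter. LTB, a lymphotoxin, was higher against the first reference and lower against the second, with log2 ratios of 0.48 and -0.20.

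The 15 genes with the largest ratios of CPM + 10 over the CCR6-negative cells were led by GPX1, a glutathione peroxidase, at 86.5 CPM against 19.6 CPM (log2 ratio 2.14). A single member held 33 of its 189 UMIs, and 5 members held 39.7%. COL5A3, a collagen chain, was spread more evenly, with 60 UMIs in 47 members and a log2 ratio of 2.67 (2.20 to 3.13). Others were CTSL, a cathepsin (1.76), NR1D1, the clock repressor REV-ERB alpha (1.70), TNFRSF25, the death receptor DR3 (1.58), FURIN, a proprotein convertase that activates TGF-beta (1.84), and DUSP16, a MAP kinase phosphatase (1.73). EGLN3, a prolyl hydroxylase of the oxygen response, had 1.63, and RARRES1, a retinoic acid response gene, had 2.02.

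COL5A3, GPX1, RARRES1, CCDC50, TNFSF13B, FURIN, NR1D1 and PERP were among the 15 highest with both references. With the second reference, HOPX and DAPK2 joined them. HOPX, a cofactor of effector and memory T cells, was at 190 CPM against 72.9 CPM (log2 ratio 1.38, and 1.24 with cytotoxic UMIs absent on both sides), and DAPK2, a kinase, at 61.8 CPM against 19.1 CPM (1.69). Against the first reference, which holds the cytotoxic cells, HOPX had -0.03 (-0.18 to 0.11).

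CXCL13, the B cell attractant of follicular helper cells, was among the 15, at 34.3 CPM against 7.43 CPM. Its 75 UMIs lay in 14 members, and 5 of these held 74.7%, so the level describes few cells. The log2 ratio of 2.21 fell to 1.21 (0.66 to 1.73) with at most 2500 genes per cell. Of 9 measured follicular helper genes, 1 was higher and 3 (PDCD1, TOX and SH2D1A) were lower against the CCR6-negative cells, while against the second reference 1 of 8 was higher and none lower. Against the first, CXCR5 had a log2 ratio of -0.67.

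Cytotoxic genes were lower in members than in the CCR6-negative cells. Of 15 measured cytotoxic genes, 14 were past 1.5-fold lower, with a median log2 ratio of CPM + 10 of -1.84. Against the second reference, from which cells with UMIs of cytotoxic genes were removed, 2 of 8 were higher (NKG7 and CST7) and none lower, with a median of 0.42. Members were not filtered in this way and 92 of them had such UMIs. The filter itself can therefore raise members here, and no conclusion is drawn from these 2 genes. Against the first reference, GZMB stood at 195 CPM against 1358 CPM, a log2 ratio of -2.80, NKG7 had -1.99, CCL5 had -2.15 and CX3CR1 had -2.68. A GZMB UMI was found in 11.4% of members (8.55 to 14.8) and in 8.14% of the B gene cells (3.34 to 16.1), which should lack it, at median depths of 4734.5 and 4137.5 UMIs, and these intervals overlap. The positive members held a median of 6 GZMB UMIs each, and at 195 CPM members were above the CCR9+ cells without CCR6 (124 CPM) and the CCR4+ cells without CCR6 (119.7 CPM). The 7 positive B gene cells held 263 GZMB UMIs, which gave that group 663 CPM. TBX21, the Th1 factor T-bet, had a log2 ratio of -1.77 (-2.51 to -1.12) against the first reference and 0.44 (-0.38 to 1.20) against the second. GATA3, the Th2 factor, did not differ from the first (0.05, -0.20 to 0.28).

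HBB and HBA, the globin genes, headed the lower list with log2 ratios of -6.15 and -4.11, but 1 CCR6-negative cell held 2649 of 2658 HBB UMIs and 1 cell held 3270 of 4533 HBA UMIs. The HBB ratio describes that cell. HBA was also found in 863 of the 6880 CCR6-negative cells and in 16 of 430 members, and it was past 1.5-fold lower against the CXCR3+ cells. Its ratio is thus enlarged by 1 cell but does not rest on that cell alone. CD74, the invariant chain of antigen presentation, was spread over more cells, at 133 CPM in members and 844 CPM in the CCR6-negative cells. The CCR6-negative cells of the first reference were not cleared of CD79B and MS4A1, and against the reference with the same exclusions CD74 stood at 543 CPM, a log2 ratio of -2.03. MAMU-DRA, an MHC class II gene, had -3.50 against the first reference and 0.13 (-0.48 to 0.69) against the second.

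Markers of other cell types were low in members. CD22 and PAX5 had no UMI. CD79A had 33 UMIs in 30 of 430 members and 889 UMIs in 400 of the 6880 CCR6-negative cells. This is 15.1 CPM against 32.5 CPM, but by share of cells CD79A was not rarer in members. With the exclusions of the rule applied to that reference, CD74 alone of 4 measured B cell genes was past 1.5-fold lower. The 9 B cell genes that the rule did not use summed to 155 CPM in members, most of it CD74, and 940 CPM in the CCR6-negative cells. The sum was 566 CPM with the exclusions of the rule applied to that reference and 232 CPM in the second reference. Monocyte genes summed to 9.61 CPM with 6 of 8 at 0, among them LYZ, and platelet genes to 1.37 CPM with 2 of 4 at 0. Genes of NK cells summed to 13.3 CPM with 3 of 4 at 0. The T cell genes outside the rule had none of 9 past 1.5-fold in either direction against the first reference and 1 higher, CD8A, against the second. None of the 5 cycling genes measured against the first reference passed.

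Naive and memory genes did not all lie on the same side of the references. Against the first reference, 1 of 9 measured naive genes was past 1.5-fold higher (SATB1) and 1 was lower (SOX4), and against the second reference, 4 of 9 measured naive genes were past 1.5-fold lower, CCR7, LEF1, CD7 and SOX4, with a median of -0.48. CCR7, the lymph node homing receptor, was at 151 CPM in members, 231 CPM in the second reference and 145 CPM in the first. SOX4, a gene of recent thymic emigrants, had 3 UMIs in 2 members, with log2 ratios of -2.72 and -3.65 against the first and the second reference. SATB1, a chromatin organiser, was higher than in both, with log2 ratios of 0.93 and 0.37.

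Of 14 measured memory genes, 1 was past 1.5-fold higher (IL7R) and 1 lower (ANXA1) against the first reference, and 1 was higher (S100A4) and none lower against the second. S100A4, a calcium-binding protein of memory cells, was at 2475 CPM in members against 1573 CPM in the second reference (log2 ratio 0.65) and 2994 CPM in the first (-0.27). ITGB1, the integrin beta 1 chain, was at 260 CPM against 264 and 193 CPM. CCR7 UMIs were present in 171 of 430 members.

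Of 9 measured chemokine receptors, 1 was past 1.5-fold higher (CCR4) and 1 lower (CX3CR1) against the first reference, and 1 of 6 was higher (CCR2) and 1 lower (CCR7) against the second. Of 16 measured homing and adhesion genes, 2 were higher (ICAM2 and ITGA1) and 2 lower (S1PR5 and ITGB2) against the first, and none of 15 passed in either direction against the second. CCR4, a receptor for skin homing, had a log2 ratio of 1.35 (16.9 against 6.66 CPM) and 0.35 against the second reference. CCR2, a receptor for inflammatory monocyte chemokines, had 0.88 and 1.65, while CXCR3 had -0.55 and -0.39. ITGA1, the alpha 1 chain of a collagen receptor, had 1.10 and 0.67, at 49.0 CPM against 22.9 CPM. ITGB7 and ITGAE, the chains of gut integrins, had 0.47 and 0.31. GPR15, a colon homing receptor, had 21 UMIs in 16 members and a ratio of 0.83 (0.09 to 1.49), and 0.11 (-0.65 to 0.81) against the second reference.

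Of 6 measured genes of regulatory T cells, 2 (IL2RA and TNFRSF4) were past 1.5-fold higher and none lower against the first reference, and none of 6 passed in either direction against the second. IL2RA, the high-affinity IL-2 receptor chain, and TNFRSF4, the costimulatory receptor OX40, had log2 ratios of 1.19 (0.72 to 1.63) and 1.31 (1.0 to 1.62) against the CCR6-negative cells and 0.87 and 0.37 against the second reference. Of the signalling lists, the JAK-STAT genes had 1 of 12 measured past 1.5-fold higher, SOCS2 (log2 ratio 1.10), and none lower against the first reference, and none of 12 in either direction against the second. Of 11 measured TGF-beta and SMAD genes, FURIN was higher and TGFBR3 lower against the first reference, and TGFBR1, TGFBR3 and FURIN were higher and none lower against the second. TGFBR3, a TGF-beta co-receptor, had log2 ratios of -0.83 and 1.04, and 0.42 (0.07 to 0.76) with cytotoxic UMIs absent on both sides. TGFBR1, a TGF-beta receptor chain, had 0.80 and 1.01. Immediate early genes had 3 of 12 lower against the first reference (EGR1, NR4A1 and NR4A2) and none of 11 against the second. With the exclusions of the rule applied to the first reference, NR4A2 alone was lower and JUN was higher.

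CSF1, KLRB1, IL12RB1 and IL17A had higher CPM in members with more CCR6 UMIs. No gene list was counted for this comparison, and IL23R, IL17RE and TNFSF13B did not differ beyond counting error. The 140 members with 2 or more CCR6 UMIs, at a median of 5018 gene UMIs, were compared with the 290 that had 1, at 4590.5. CSF1 stood at 64.9 CPM against 32.5 CPM (log2 ratio 1.0, 0.39 to 1.61), KLRB1 at 162 CPM against 106 CPM (0.61, 0.26 to 0.96), and IL12RB1 at 46.7 CPM against 22.6 CPM (1.04, 0.32 to 1.78). After thinning, CSF1 was found in 9.63% (5.23 to 15.9) and 5.80% (3.35 to 9.24), shares whose intervals overlap, and 5 members held 28.1% of its UMIs. The thinned shares of KLRB1 were 24.4% (17.5 to 32.6) and 12.7% (8.99 to 17.2). IL17A had 10 UMIs against 3, a log2 ratio of 2.61 (0.65 to 5.11). Of the IL17A UMIs in members, most thus lay in the smaller group.

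IL23R and IL17RE pointed the same way without clearing counting error, with log2 ratios of 1.10 (-0.12 to 2.34) and 0.97 (-0.14 to 2.09). Thinned to equal depth, IL23R was found in 2.96% of members with 2 or more CCR6 UMIs and 2.17% of those with 1, and IL17RE in 2.22% and 2.17%, so no difference was detectable. CXCR6, a tissue-homing chemokine receptor, had 19 UMIs against 4, with 3.12 (1.53 to 5.14), and CCR2 had 22 against 13, with 1.63 (0.58 to 2.75). GPX1 was at 153 CPM against 50.2 CPM, the single rich cell included. In the other direction, CCR7 stood at 89.5 CPM against 184 CPM (log2 ratio -1.04, -1.44 to -0.65) and CD7, a T cell surface glycoprotein of naive cells, at 219 CPM against 359 CPM (-0.71, -0.97 to -0.46). TNFSF13B did not follow this order (-0.21, -0.80 to 0.35).

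**Figure D4:**
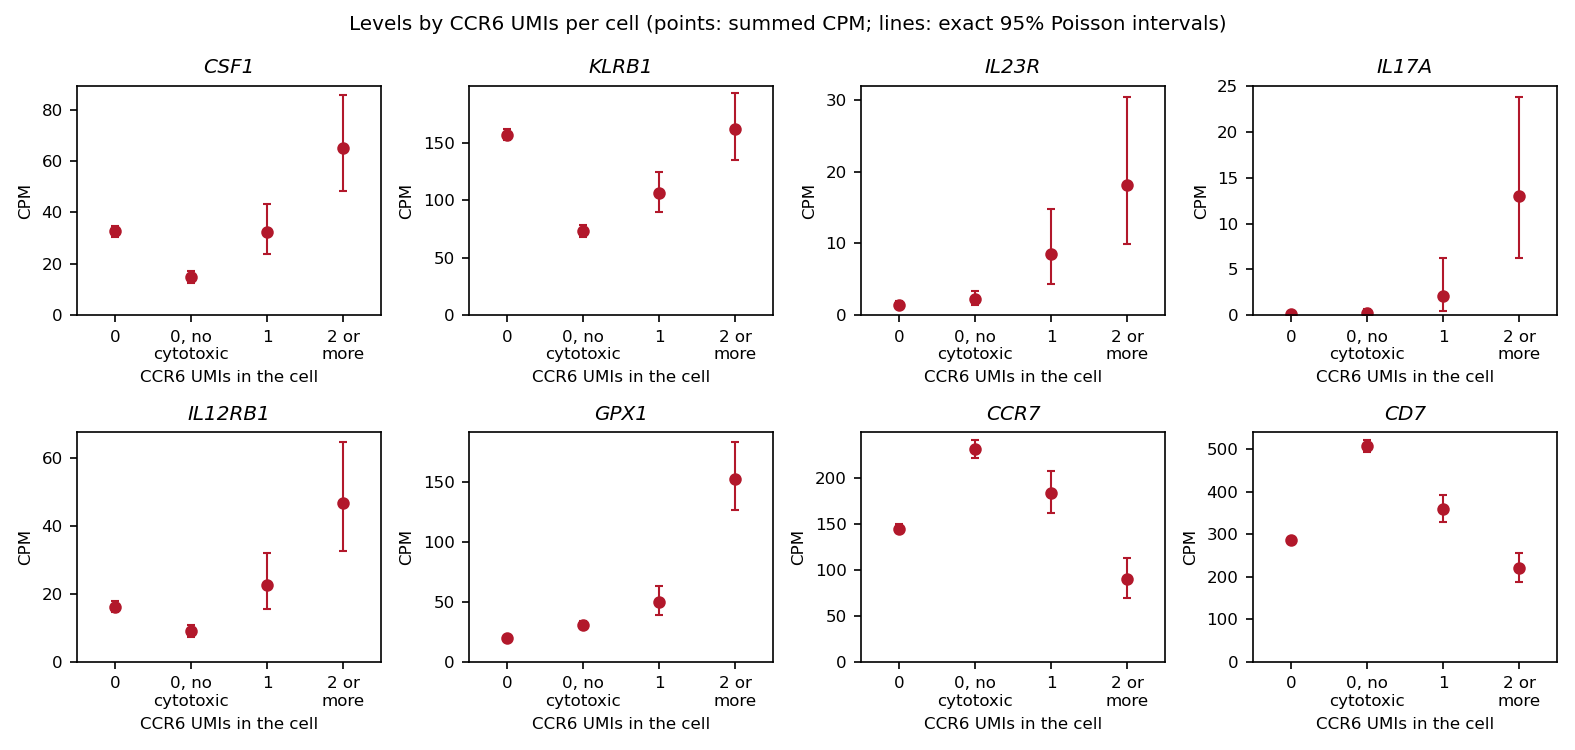
Levels (CPM, with exact 95% Poisson intervals) of 8 genes in CCR6-negative CD3+ cells, CCR6-negative cells without cytotoxic UMIs, and members with 1 or with 2 or more CCR6 UMIs. CSF1, IL12RB1 and GPX1 are highest and CCR7 and CD7 lowest in members with 2 or more CCR6 UMIs.

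To see how many members showed more than their CCR6 molecule, cells were counted by how many of 8 genes they carried, a panel chosen after values were seen: IL23R, IL17RE, IL1R1, PTPN13, TNFSF13B, AHR, IL17A and IL17F. Most of these were picked because they were higher in members, so a larger share in members than in other cells was fixed by the choice and no such comparison is drawn. At least 2 of them were found in 14.7% of members (11.4 to 18.4) and none in 49.5%.

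For comparison with cells bearing other receptors, 3 gates held cells with CD3, no CCR6, FOXP3, MS4A1 or CD79B, and exactly 1 of CCR9, CCR4 and CXCR3, and they share the CCR6+ cells as the other side of each comparison. Against 299 CCR9+ cells, members were higher in ITGB1 (260 against 42.1 CPM, log2 ratio 2.63), LMNA, a nuclear lamin (3.21), CSF1 (2.19), KLRB1 (1.56) and CCR2 (3.54), and in IL23R (1.79, 0.38 to 3.53) and IL1R1 (2.48, 1.14 to 4.18). They were lower in LZTFL1, the neighbour of CCR9 in the human genome (-2.26), in SOCS2, a cytokine signalling inhibitor (-0.75), and in ITGA1 (-0.58, -0.98 to -0.18). TNFSF13B was at 42.7 CPM in CCR9+ cells, within counting error of members. The CCR2 ratio rests on few molecules, as only 2 of the 299 CCR9+ cells had a CCR2 UMI. After thinning, CCR2 was found in 2.19% of members (1.01 to 4.12) and 0.356% of CCR9+ cells (0.009 to 1.97), and these intervals overlap.

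Against 115 CCR4+ cells, members had more CSF1 (43.9 against 3.8 CPM, log2 ratio 3.53), HOPX (2.0), KLRB1 (1.59) and TNFSF13B (2.07) and less GATA3 (73.2 against 188 CPM, -1.36), CXCL13 (-2.18) and AHR (-0.86, -1.45 to -0.23). CTSH was at about the same level (-0.07), and IL23R was not distinguishable at this depth (0.65, -0.88 to 2.63).

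The 929 CXCR3+ cells were farthest in effector genes, with members lower in GZMB (log2 ratio -2.80), GZMK (-2.76) and CCL5 (-2.51). Members were higher than CXCR3+ cells in GPX1 (2.95), CTSL (2.49), CTSH (2.29), PTPN13 (2.77), IL23R (4.0, 2.29 to 6.37) and IL1R1 (5.28, 3.33 to 8.37). CSF1 was alike (-0.12, -0.49 to 0.24). IL1R1 and RORA were each above all 3 gates beyond counting error, IL1R1 with 5, 1 and 2 UMIs in the CCR9+, CCR4+ and CXCR3+ cells, and RORA with log2 ratios of 0.56, 0.69 and 0.35.

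Members were not uniform in these receptors either. CXCR3 without CCR4 was found in 61 members, CCR4 without CXCR3 in 25, both in 4 and neither in 340. The cytotoxic genes GZMB, NKG7 and CCL5 were higher in the 61 than in the 25. They are named because they had some of the largest ratios in this comparison. No gene list was counted for it, so cytotoxic genes as a group were not compared. GZMB was at 351 CPM against 15.9 CPM in the 25 (log2 ratio 4.46), NKG7 at 398 against 23.9 CPM (4.06), and CCL5 at 224 against 7.97 CPM (4.81, 2.29 to 10.1). TYROBP, an adaptor of NK receptors, had 57 UMIs in 18 of the 61 and none in the 25, at least 2.81 higher on the log2 scale when 3 UMIs are set as the floor for the group.

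GZMB in the 61 came from 11 cells and 119 UMIs, while the 340 members with neither receptor held 303 of the 426 GZMB UMIs of all members, in 36 cells. Members with CCR4 instead had more GPX1 (335 against 23.6 CPM, 42 UMIs in 11 cells), COL5A3 (95.7 against 14.7 CPM, log2 ratio of CXCR3 over CCR4 cells -2.70, -4.56 to -1.09), IFI6, an interferon-induced gene (686 against 194 CPM), and CAPG, an actin-capping protein (965 against 436 CPM). PTPN13 had 2 UMIs in the 61 and 6 in the 25 (-3.02, -6.36 to -0.54). IL23R had 1 and 2 UMIs, too few to compare.

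Receptor segments were carried by few members. TRBV6-1 had 103 UMIs in 13 members, or 3.02% of members against 2.24% of CCR6-negative cells, and TRBV29-1 had 92 UMIs in 12 members. In these, 5 members held 77.7% and 73.9% of the UMIs, so their CPM ratios rest on single cells rich in the segment. By cells, TRAV29DV5 was found in 6.51% against 3.14% and TRAV13-1 in 6.51% against 3.24%, and TRBV7-3 in 1.86% against 4.40%. In the second reference these were 4.89%, 5.42% and 0.739% of cells, so TRBV7-3 turned and the other 2 lay closer to members. Shares are not corrected for the greater depth of members.

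The antibody tags were not used to choose the cells. The CD8 FB median was 501 UMIs in members (quartiles 287 and 849) and 328 in CCR6-negative cells (185 and 548). The CD4 FB medians were 468.5 (381 to 605) and 376 (281 to 490). Members have more gene UMIs too, and per 1000 gene UMIs the CD8 medians were 110 and 93.0 and the CD4 medians 102 and 101. The CD8 tag thus remained higher after division by depth and the CD4 tag did not.

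A tag was called above background when it exceeded the 90th percentile of 86 B gene cells, which had 3 or more B cell gene UMIs without CD3, at 330.5 for CD8 and 191 for CD4. CD8 passed in 70.0% of members (65.4 to 74.3), 49.6% of CCR6-negative cells (48.4 to 50.8), 62.2% of CCR9+, 47.0% of CCR4+ and 50.4% of CXCR3+ cells. CD4 passed in 97.4% of members and 92.9% of CCR6-negative cells. Both tags passed in 68.8% of members (64.2 to 73.2) and 46.9% of CCR6-negative cells (45.7 to 48.1). The cuts are raw tag counts, so these shares are not divided by depth, which was greater in members.

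The CD8A and CD4 transcripts pointed the same way against the first reference. CD8A was at 233 CPM in members (213 to 254), 165 CPM in CCR6-negative cells (161 to 170) and 141 CPM in the second reference, log2 ratios of 0.49 and 0.72, while CD4 was at 178 CPM and 174 CPM (0.03, -0.12 to 0.18). After thinning, 30.7% of members and 24.2% of CCR6-negative cells had a CD8A UMI, beside 5.06% of the B gene cells. The share was 31.7% in CCR9+ cells and 30.2% in the cytotoxic background cells, so CD8A did not separate members from these. A CD8B UMI was found in 2.19% of members and 2.16% of CCR6-negative cells after thinning. The 338 members without cytotoxic UMIs had a CD8 FB median of 463 and the 92 with such UMIs one of 675.5, against 328 in the CCR6-negative cells. Per 1000 gene UMIs these medians were 103.5, 126.9 and 93.0, so both stayed above the reference, by less in the 338. The CCR9+ cells had 102.9 on this scale, close to the 338.

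**Figure D5:**
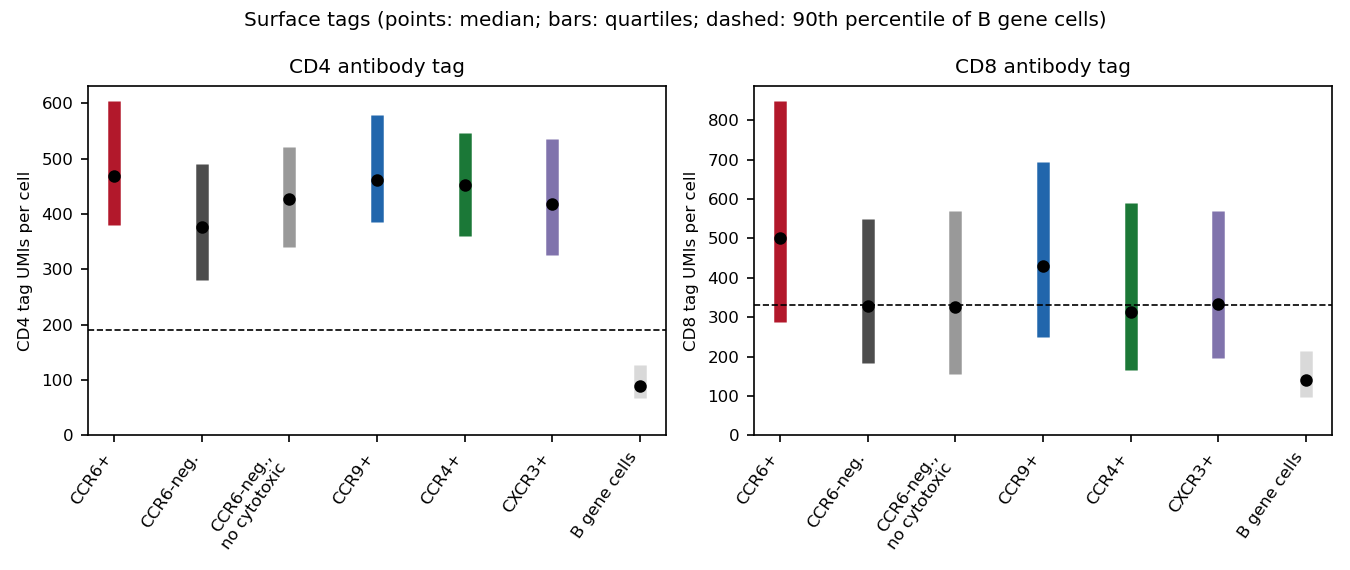
CD4 and CD8 antibody tag UMIs per cell in CCR6+ DP T cells, 5 reference groups and B gene cells (points, medians; bars, lower to upper quartile; dashed line, 90th percentile of B gene cells). The CD8 median of CCR6+ cells, 501, is the highest of the groups.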

How the data were processed

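DP T cells of 1 rhesus monkey were profiled by 10x 5' scRNA-seq with CD4 and CD8 antibody tags. The deposited matrix holds UMI counts, not normalized, of genes and tags in each barcode. Per the submitters' notes the authors used Mmul_10, STAR 2.5.1b and Cell Ranger 3.1.0, with no annotation release named. From 7923 barcodes, cells of 200 to 4000 genes were kept if mitochondrial UMIs (13 named genes and 2 identifiers) did not exceed 20%. No doublet caller was run, and a limit of 2500 genes was tried. Of 35432 genes, 23817 had a symbol and 675 more were named from a gene table.

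Counts were summed per group of cells and given as CPM with exact Poisson 95% intervals. Ratios have the exact interval of the binomial split of both counts, and shares have exact binomial (Clopper-Pearson) intervals. UMIs are counted molecules, and intervals cover counting error only. Gene lists were described by counts past 1.5-fold in the ratio of CPM + 10 among genes with at least 50 summed UMIs, leaving out the genes of the selection. Named genes are those of the lists and the 15 of largest ratio in each direction, given 50 UMIs on the higher side. Promoters were read from the RefSeq genome. The members and the lists were chosen with earlier results of these data known. For shares, cells were thinned to 2000 UMIs (seed 1), which drops shallower cells. Results for some listed genes are not reported here. Computation was tested on simulated data. Python 3.11.15, numpy 2.4.6, scipy 1.17.1 and pandas 2.3.3 were used. The alternatives were other CCR6 thresholds, exclusions, filters, depths, pseudocounts and references.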

Additional observations from a re-analysis of the deposited data

Results flagged for a closer look

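The 87 cells with CCR6 and CCR9 and none of FOXP3, MS4A1 or CD79B are left out of the members by the rule and entered only the alternative without the exclusions. In them, 2 genes chosen after their values were seen, IL17A and IL1R1, were above their level in CCR9+ cells without CCR6. IL17A had 8 UMIs in 4 of the 87 cells, 15.8 CPM (6.82 to 31.1), and 0 UMIs in 299 CCR9+ cells without CCR6, whose exact upper bound is 2.54 CPM. IL1R1 had 10 UMIs in 8 of the 87 cells, 19.8 CPM (9.48 to 36.3), against 3.45 CPM (1.12 to 8.04) in the CCR9+ cells. These levels were not tested, as there is 1 animal, and the 87 cells had a median of 5106 UMIs against 4556.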

How the results depend on the processing

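With at least 2 CCR6 UMIs the share of members was 1.84% and without the exclusions 7.43%. The log2 ratio of CSF1 was 0.99 with at least 2 CCR6 UMIs and 1.58 against the reference without cytotoxic UMIs. Its interval reached 0 with at most 2500 genes (0.21, -0.15 to 0.55) and with a mitochondrial limit of 10% (0.32, -0.03 to 0.66). KLRB1 went from -0.32 to 0.048 (-0.22 to 0.30) with at least 2 CCR6 UMIs, an interval that reached 0. Against the reference without cytotoxic UMIs it reversed to 0.78. With a pseudocount of 50 CPM, IL23R fell to 0.27 and IL17RE to 0.19, since both are below 50 CPM. The CD4 tag ratio was 1.09 with the second reference. Genes past 1.5-fold higher numbered 124, and 263 with at least 2 CCR6 UMIs, 475 with CPM + 1 and 19 with CPM + 50. Genes past 1.5-fold lower numbered 193, and 314, 853 and 53 under the same settings and 34 against the second reference. Among cells with 3000 to 6000 UMIs, the log2 ratio was 2.93 for IL23R, 1.25 for IL17RE and 3.97 for IL1R1, while the intervals of IL17A (-0.38 to 6.33), CXCR3 (-0.21, -0.67 to 0.22) and ZBTB16 (0.74, -0.03 to 1.43) reached 0. In the same window GZMB moved from -2.80 to -4.03 (-4.33 to -3.74). For main results, 66 values under alternatives stayed within their margin and 14 moved. For the others, 190 stayed, 63 moved and 2 reversed. Alternatives for 20 further genes were chosen after seeing the data. Apart from KLRB1, the 25 other log2 ratios kept their sign in every alternative that gave a value. The limits are 1 animal, no replicate, members defined mostly by 1 UMI, and low counts for IL23R, IL17RE and IL17A. No paired analysis was possible because there is 1 sample and no comparison between samples.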
